A study of Mus musculus with 12 samples.

Results

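Acyl-CoA thioesterases cut fatty acyl-CoA into free fatty acid and coenzyme A. To describe this family in beige-prone fat, 9 genes were taken by their symbols from a table of 23420 genes: Acot1, Acot2, Acot3, Acot4, Acot8, Acot9, Acot11, Acot12 and Acot13. All 9 were found, and all 9 were among the 15306 genes that passed the filter on low counts. Acot3 and Acot12 passed only through the cold groups, in which they were higher. RNA of inguinal white adipose tissue (iWAT) was sequenced from 10-week-old male C57BL/6 mice in 4 groups of 3 libraries. Every mouse carried HIF2a loxP/loxP alleles. Mice without Cre were the wild type (WT), and mice with Adipoq-Cre, which is active in adipocytes, were the HIF2α AKO. One group of each genotype was kept at thermoneutrality (TN, 30 °C) for 1 week, and the other in cold (4 to 6 °C) for 3 days. Cre was present only together with the intended deletion, so the effects of both cannot be told apart.

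Acyl-CoA is the activated form in which fatty acids enter β-oxidation, lipid synthesis and protein acylation. Synthetases make it and thioesterases reverse that step, so the family helps to set acyl-CoA and free CoA pools compartment by compartment. Type I enzymes (Acot1 to Acot6) share an α/β-hydrolase fold. Type II enzymes (Acot7 to Acot13) share a hotdog fold. Brown and beige adipocytes burn fatty acids for heat and also use free fatty acids to activate uncoupling protein, and Acot11 is also known as brown-fat-inducible thioesterase.

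Each library held between 22368316 and 35204631 counts on genes. Values are given as CPM, counts relative to the library size after TMM scaling, with the standard deviation (SD) over 3 libraries. Fold changes from the edgeR fit carry their standard error (SE). For Epas1, the gene of HIF2α, CPM was 826 in cold HIF2α AKO and 627 in cold WT (edgeR log2 difference 0.40, adjusted p = 1). At TN it was 348 in HIF2α AKO and 360 in WT (edgeR log2 difference -0.05, adjusted p = 0.999). The labelled deletion was thus not visible in these counts, which cover the whole gene, and genotypes are given as labelled. The study itself reported lower mRNA of this gene in iWAT of HIF2α AKO mice, measured by RT-qPCR. White adipocyte markers were present in all libraries, and none of the 8 was at 0. Some libraries stood apart in markers of other tissues. Skeletal muscle markers summed to 1723 CPM in cold HIF2α AKO replicate 1 and to 1983 CPM in TN HIF2α AKO replicate 2, against at most 116.3 CPM in the other libraries. Epithelial markers summed to 225.7 CPM in TN WT replicate 3 and to at most 10.81 CPM elsewhere. In bulk tissue, fewer cells of a type and less RNA per cell cannot be told apart.

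The family is spread over 5 chromosomes of the mouse assembly GRCm38. Acot2 (chr12:83987861-83993873), Acot1 (chr12:84009490-84018371), Acot4 (chr12:84038379-84048601) and Acot3 (chr12:84052144-84060402) lie in this order on the plus strand. Together with Acot5 and Acot6 they form a cluster of 123.5 kb. The type II members are apart from it and from one another: Acot8 (chr2:164792765-164804882, minus strand), Acot9 (chrX:155262443-155297654, plus strand), Acot11 (chr4:106744555-106804998, minus strand), Acot12 (chr13:91741512-91786148, plus strand) and Acot13 (chr13:24817948-24831540, minus strand). These spans are those of the GENCODE vM21 annotation.

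Near-identical coding sequence limits how well reads can be assigned within the cluster. Acot1 and Acot2, a cytosolic and a mitochondrial enzyme, were identical at 1180 of 1239 aligned coding bases (95.2%), with an unbroken identical run of 273 bases. Acot2 has 123 coding bases ahead of the Acot1 start. Other type I pairs shared between 74.5 and 85.8% of aligned bases. Both pairs of lines show 90 coding bases of each gene, read 5′ to 3′ from GRCm38, the first from a stretch without differences and the second from the stretch with the most. Capitals mark the bases that differ, and positions count from the A of the start codon.
Acot1 coding bases 397 to 486: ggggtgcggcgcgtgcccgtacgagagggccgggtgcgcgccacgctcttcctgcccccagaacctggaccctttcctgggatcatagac
Acot2 coding bases 520 to 609: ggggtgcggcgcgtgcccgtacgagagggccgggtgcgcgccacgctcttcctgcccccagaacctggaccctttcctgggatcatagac
Acot1 coding bases 797 to 886: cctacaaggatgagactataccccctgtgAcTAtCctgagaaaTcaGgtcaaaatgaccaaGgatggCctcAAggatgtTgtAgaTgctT
Acot2 coding bases 920 to 1009: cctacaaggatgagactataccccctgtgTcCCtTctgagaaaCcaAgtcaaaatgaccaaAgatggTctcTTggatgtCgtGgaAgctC
A read within the first pair cannot be assigned to either gene, whereas the second pair differs at 14 of 90 bases. Of all stretches of 50 bases in annotated exons, 27.71% of those of Acot2 and 19.25% of those of Acot1 also occurred in another gene. At 100 bases the shares were 17.12 and 12.35%. Acot13 shared none at either length. For Acot3 and Acot4, whose spans overlap those of the gene models Gm49366 and 4732463B04Rik in GENCODE, the shares at 50 bases were 21.25 and 13.41%. Acot9 shared 15.15% of its 50-base stretches, all of them with Acot10, to which its coding sequence was 97.2% identical.

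To show what lies at the starts of genes that moved together upon cold, promoters of 300 bases (250 before and 50 from the start site) were taken from RefSeq with GRCm38.p6 coordinates. The table held 10 promoters for 8 of the 9 members, all but Acot13. Both strands were searched for ACGTG and GCGTG (the core bound by HIF factors), TGACG (part of the cAMP response element) and AGGTCA (the unit bound by nuclear receptors such as PPARα). Capitals mark matches to these 4 motifs. Promoters of Acot11, the member with the lowest p upon cold, and of the neighbours Acot4, Acot2 and Acot1 are shown on the strand of the gene.
Acot11, chr4:106799782-106800081, minus strand: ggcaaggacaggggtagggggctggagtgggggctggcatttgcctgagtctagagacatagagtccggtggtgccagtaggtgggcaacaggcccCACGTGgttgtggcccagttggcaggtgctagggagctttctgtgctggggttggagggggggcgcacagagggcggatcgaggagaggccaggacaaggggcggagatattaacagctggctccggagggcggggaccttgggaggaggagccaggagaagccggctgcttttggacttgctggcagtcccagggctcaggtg
Acot4, chr12:84038129-84038428, plus strand: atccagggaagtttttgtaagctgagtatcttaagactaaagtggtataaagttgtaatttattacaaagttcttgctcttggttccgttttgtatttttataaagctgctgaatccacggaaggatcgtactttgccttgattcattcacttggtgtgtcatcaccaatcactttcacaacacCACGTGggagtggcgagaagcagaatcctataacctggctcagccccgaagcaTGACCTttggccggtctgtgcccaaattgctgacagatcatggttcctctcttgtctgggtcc
Acot2, chr12:83987611-83987910, plus strand: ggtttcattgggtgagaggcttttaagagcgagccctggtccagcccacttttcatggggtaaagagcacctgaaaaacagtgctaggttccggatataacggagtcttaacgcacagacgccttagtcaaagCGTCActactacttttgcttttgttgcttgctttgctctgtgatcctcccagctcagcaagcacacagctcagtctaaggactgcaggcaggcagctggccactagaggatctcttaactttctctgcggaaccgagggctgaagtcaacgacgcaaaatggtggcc
Acot1, chr12:84009252-84009551, plus strand: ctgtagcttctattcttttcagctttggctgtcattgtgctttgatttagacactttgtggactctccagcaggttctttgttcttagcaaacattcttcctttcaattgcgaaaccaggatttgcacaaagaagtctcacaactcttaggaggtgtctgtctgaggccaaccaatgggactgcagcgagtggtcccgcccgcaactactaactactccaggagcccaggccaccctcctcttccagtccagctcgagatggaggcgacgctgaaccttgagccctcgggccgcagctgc
Acot11 and Acot4 each held CACGTG, a palindrome that counts as ACGTG on both strands. ACGTG was found in 2 of the 8 members with a promoter, and 19.6% of all 32851 promoters of this length held it. A second promoter of Acot11, at chr4:106804958-106805257, held none of the 4 motifs. AGGTCA was found in 3 members (Acot3, Acot4 and Acot12) and in 16.3% of all promoters, TGACG in 1 member (Acot2) and in 20.8%, and GCGTG in 1 member (Acot8) and in 32.4%. A direct repeat of AGGTCA with a spacer of 1 base was in 0 member promoters and in 0.04% of all promoters. CCAAT was in 7 of the 8 members and 37.4% of promoters, and GGGCGG in 5 of the 8 and 35.7%. A member was counted if any of its promoters matched, whereas the percentages count single promoters. The 2 measures are thus not alike for members with more than 1 promoter. These matches describe the letters in the windows, and binding was not measured.

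At TN, most of the summed level of the 9 members came from type II genes. For comparison between genes, CPM was divided by exon length (CPM per kilobase). In TN WT the level per kilobase was 24.9 ± 5.65 (SD, n = 3) for Acot13, a mitochondria-associated enzyme of long-chain acyl-CoA, and 17.9 ± 2.44 for the mitochondrial Acot9. The ranges of these 2 genes overlapped. Below them came the peroxisomal Acot8 at 8.63 ± 0.578 and Acot2 at 6.32 ± 1.21 per kilobase, without overlap. Acot11 stood at 1.61 ± 0.21 per kilobase, Acot1 at 0.361 ± 0.29 and Acot4 at 0.241 ± 0.114, of which the last 2 overlapped. Acot12 and Acot3 were at or near 0. In cold WT the order had changed below Acot13, which stood at 66.1 ± 3.44 per kilobase. Acot2 (24.4 ± 9.97) and Acot9 (23.8 ± 0.927) followed and overlapped. Acot8 (13.5 ± 1.46) and Acot11 (11.4 ± 1.15) came next and overlapped as well. In cold HIF2α AKO, Acot13 stood at 84.8 ± 18.4 per kilobase. Acot2 (38.1 ± 12.4), Acot11 (28.6 ± 9.28) and Acot9 (26.0 ± 1.93) followed, and neighbours among these 3 overlapped. Acot8 came next at 15.5 ± 1.76, apart from Acot9. Lengths of the longest transcript in place of all exons raised the TN WT value of Acot9 to 23.3 and that of Acot8 to 13.5.

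**Figure D1:**
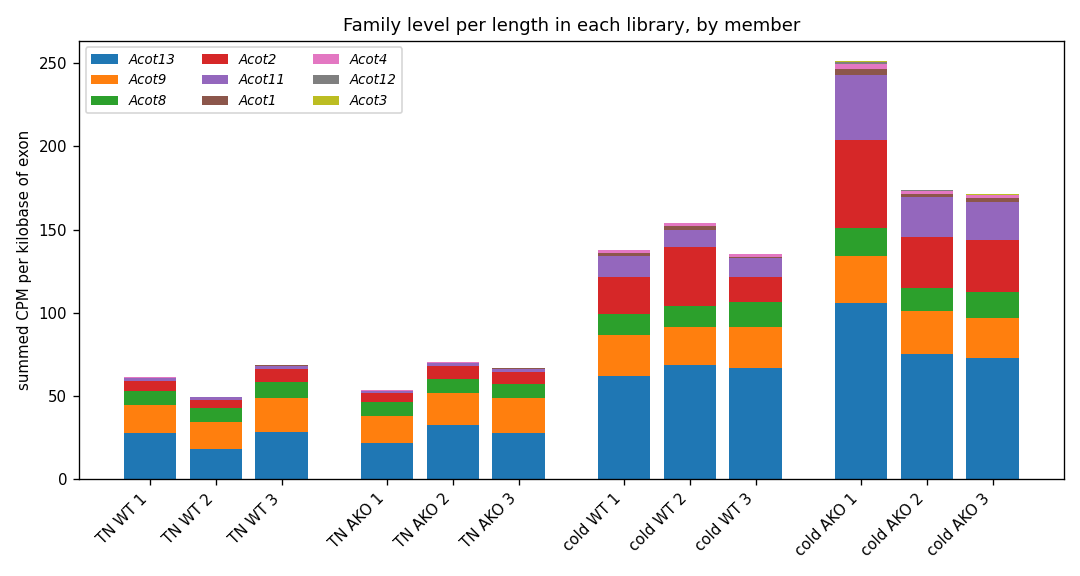
Level of the 9 acyl-CoA thioesterase genes in each library, as CPM per kilobase of exon (vertical axis), stacked by gene, for 3 libraries in each of 4 groups (horizontal axis). Sums over these 9 genes lay between 49.8 and 70.43 in the TN libraries and between 135.6 and 251.1 in the cold libraries, and the Acot11 segment was widest in cold HIF2α AKO.

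The sum over the 9 members per kilobase was 60.0 ± 9.61 (SD, n = 3) in TN WT and 143 ± 10.1 in cold WT. It was 63.8 ± 8.82 in TN HIF2α AKO and 199 ± 45.4 in cold HIF2α AKO, in which replicate 1 was highest at 251.1. Every cold library thus lay above every TN library. This sum and the shares of it leave out Acot5, Acot6, Acot7 and Acot10. Of these, Acot7 stood at 12.4 per kilobase in TN WT and 17.4 in cold WT. Acot13 kept the largest share, between 41.2 and 46.4% of the sum as group means. The Acot11 share was 2.69% in TN WT, 8.03% in cold WT, 2.50% in TN HIF2α AKO and 14.2% in cold HIF2α AKO. The Acot9 share went the other way, with 30.0% in TN WT and 16.7% in cold WT. Type I members together made up 11.5% in TN WT and 19.1% in cold WT, of which Acot2 was the main part. These shares are descriptions without a test.

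Upon cold, all 9 members rose in WT iWAT, and all 9 rose in HIF2α AKO iWAT (edgeR quasi-likelihood test, adjusted p under 0.05 by Benjamini-Hochberg over 15306 genes). Of all tested genes, 21.3% were called in WT and 27.0% in HIF2α AKO, and 15.6% were called higher in either genotype. In both genotypes, the 3 cold libraries lay above the 3 TN libraries for each of the 9 genes. Such separation upward was seen for 22.7% of all tested genes in WT and 24.9% in HIF2α AKO. A two-sided exact permutation test of 3 libraries against 3 cannot give a p below 0.1, which each of these comparisons reached. The median log2 fold change of the 9 members was 2.02 in WT and 2.46 in HIF2α AKO, against -0.03 and -0.05 over all tested genes. Acot3 and Acot12, for which the filter passed on cold libraries alone, had to differ and are part of these counts and medians. Over the 7 members with reads in every library, the counts were 7 of 7 in each genotype and the medians 1.95 and 2.37. Leaving out single libraries, between 6 and 8 members were called in WT and 8 or 9 in HIF2α AKO. Cell type markers also moved with temperature. Of 8 white adipocyte markers, 3 were called higher upon cold in WT and 1 in HIF2α AKO (median log2 fold changes 0.94 and 0.67), and their sum ranged from 11270 to 27640 CPM at TN and from 21380 to 41370 CPM in cold. Of 9 macrophage markers, 0 were called in WT and 3 were called lower in HIF2α AKO (medians -0.03 and -0.67), in which the sum went from between 2751 and 2941 CPM to between 1600 and 1828 CPM. Of 8 lymphocyte markers, 1 and 2 were called lower (medians -0.65 and -0.69), with sums from 1023 to 1706 CPM at TN and from 588.3 to 1033 CPM in cold. Of 7 endothelial markers, 0 and 1 were called higher. The part of these shifts in the rise of the thioesterases was not tested.

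**Figure D2:**
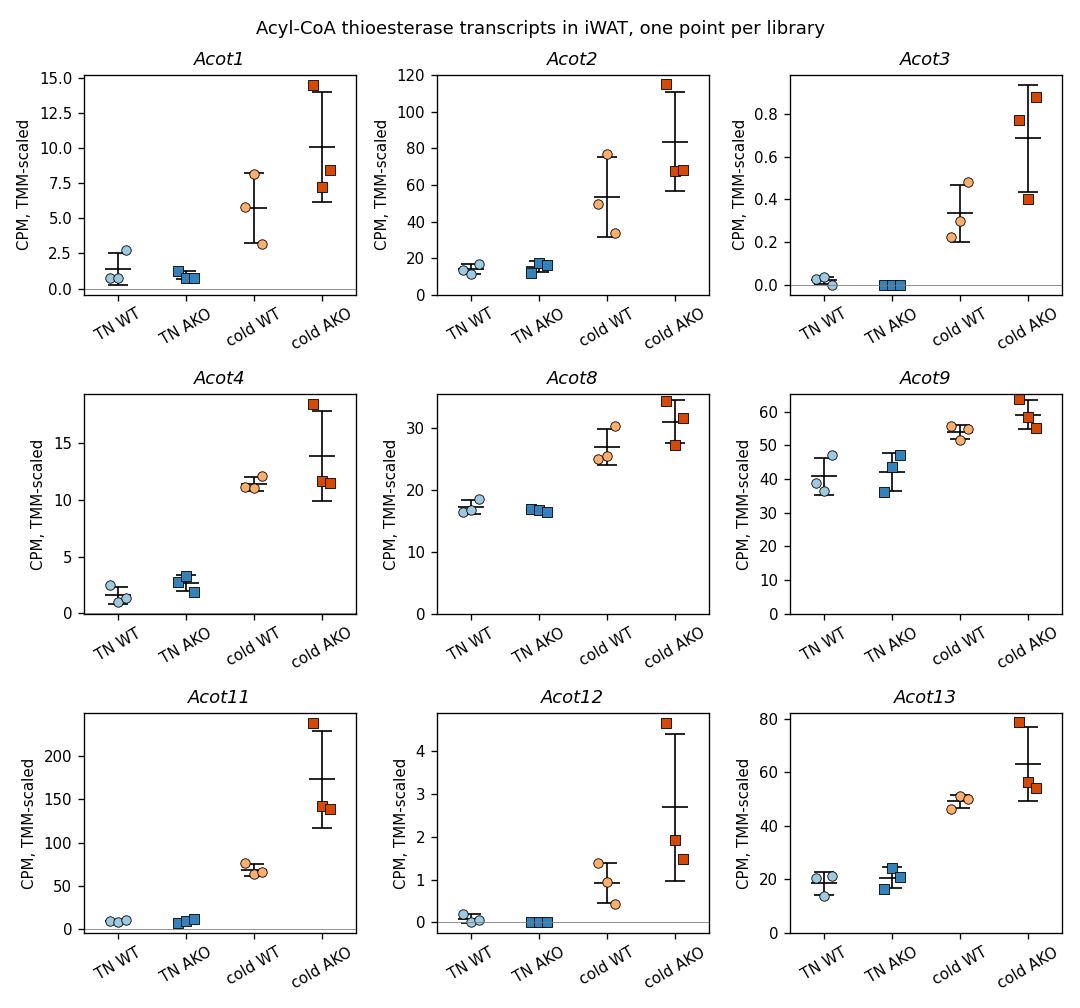
CPM after TMM scaling (vertical axes, linear, a separate scale per gene) of the 9 acyl-CoA thioesterase genes in the 4 groups (horizontal axes). Each point is 1 library, the long bar is the mean and the whiskers are the SD over 3 libraries. All cold points lie above all TN points of the same genotype in every panel, but Acot3 and Acot12 passed the filter on cold libraries alone and had to differ.

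Among the type I members, Acot2, the mitochondrial matrix enzyme, was the most abundant per kilobase. Its CPM was 13.3, 11.5 and 16.8 in TN WT replicates 1 to 3 and 49.4, 77.2 and 34.0 in cold WT. In TN HIF2α AKO it was 11.7, 17.4 and 16.5, and in cold HIF2α AKO 115.1, 67.8 and 68.3. Cold libraries were thus clear of TN libraries, although cold WT values differed more than 2-fold among themselves. The log2 fold change was 1.95 (SE 0.312, edgeR adjusted p = 0.00237) in WT and 2.46 (SE 0.316, edgeR adjusted p = 0.000536) in HIF2α AKO.

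Acot1, the cytosolic counterpart, was lower per kilobase in all 4 groups. Its CPM was 0.764, 0.754 and 2.73 in TN WT and 5.82, 8.16 and 3.18 in cold WT. It was 1.29, 0.785 and 0.778 in TN HIF2α AKO and 14.5, 7.24 and 8.45 in cold HIF2α AKO. The groups did not overlap, but TN WT replicate 3, the library with epithelial RNA, came close to the lowest cold WT library. Acot1 rose by a log2 fold change of 2.02 (SE 0.527, edgeR adjusted p = 0.0216) in WT and 3.41 (SE 0.557, edgeR adjusted p = 0.0019) in HIF2α AKO. The WT value was 2.90 without TN WT replicate 3. It was no longer called without cold WT replicate 2 (1.65, edgeR adjusted p = 0.0575), TN WT replicate 1 (1.71, adjusted p = 0.075) or TN WT replicate 2 (1.72, adjusted p = 0.0854). The ratio of Acot2 to Acot1 per kilobase ranged from 11.0 to 39.5 over TN libraries of both genotypes and from 14.1 to 19.1 over cold libraries.

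Acot4, a peroxisomal enzyme that acts on succinyl-CoA and other dicarboxylic acyl-CoA, showed close agreement among cold WT libraries. Its CPM was 2.47, 1.03 and 1.33 in TN WT and 11.1, 11.0 and 12.2 in cold WT. It was 2.81, 3.30 and 1.91 in TN HIF2α AKO and 18.5, 11.7 and 11.5 in cold HIF2α AKO. Cold values were several-fold above TN values in either genotype. The log2 fold change was 2.81 (SE 0.327, edgeR adjusted p = 0.000615) in WT and 2.37 (SE 0.318, edgeR adjusted p = 0.000661) in HIF2α AKO.

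Acot3, a peroxisomal long-chain acyl-CoA thioesterase, was close to the detection limit. It had 1, 1 and 0 counts in TN WT, 0 in every TN HIF2α AKO library, 5, 7 and 12 counts in cold WT and 16, 10 and 22 counts in cold HIF2α AKO. Reads were thus present in every cold library and nearly absent at TN. In WT, 24 pooled counts against 2 gave a ratio of 16.6 after scaling, with an exact 95% counting interval from 4.12 to 145 (edgeR adjusted p = 0.00801). In HIF2α AKO, it was at least 19.5-fold higher upon cold, computed against 3 counts over the TN group, the limit that a count of 0 allows (edgeR adjusted p = 0.000952). Intervals and limits of this kind cover counting error only. Acot3 passed the filter on cold libraries alone and had to differ, so its tests of cold against TN carry no weight of their own.

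**Figure D3:**
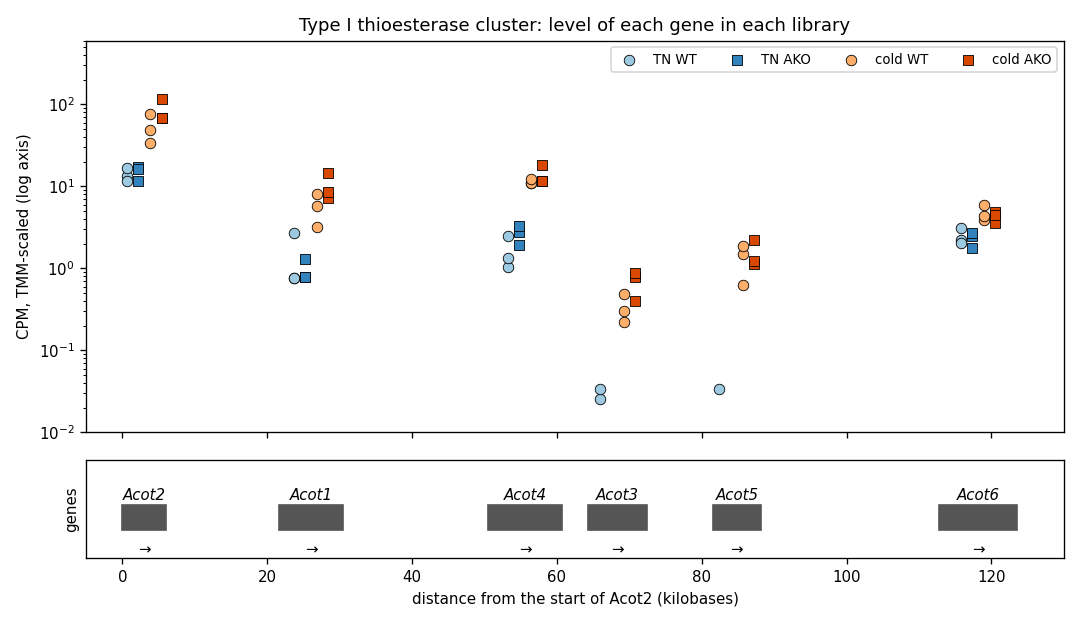
CPM after TMM scaling (vertical axis, log scale) of the 6 genes of the type I cluster in each library, drawn above a map of the genes by distance from the start of Acot2 in kilobases (horizontal axis, arrows give the strand). Libraries with 0 counts are not drawn, which leaves no TN HIF2α AKO point for Acot3 and Acot5. Upon cold, all 6 neighbours shifted upward in both genotypes, but Acot3 and Acot5 passed the filter on cold libraries alone and had to differ.

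The 2 cluster genes that are not members behaved alike in direction. Acot5, another peroxisomal enzyme, had 1 pooled count in TN WT, 96 in cold WT, 0 in TN HIF2α AKO and 105 in cold HIF2α AKO. It thus passed the filter on low counts only through the cold groups. The scaled ratio in WT was 133, with an exact 95% counting interval from 23.3 to 5300, and the rise in HIF2α AKO was at least 42.6-fold against 3 counts over the group. Acot6 rose by a log2 fold change of 0.94 in WT and 0.90 in HIF2α AKO (edgeR adjusted p = 0.0222 and 0.0232). Acot5 had to differ because of that filter, so its rise is not used to compare sizes. Among cluster genes with reads in every library, log2 fold changes in WT ran from 0.94 for Acot6 to 2.81 for Acot4. In HIF2α AKO they ran from 0.90 for Acot6 to 3.41 for Acot1.

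Acot11 had the lowest p of the 9 members upon cold in both genotypes. The encoded enzyme carries a lipid-binding START domain and acts on long-chain acyl-CoA in thermogenic fat. Its CPM was 9.12, 8.88 and 11.2 in TN WT and 77.0, 64.2 and 65.7 in cold WT. It was 7.56, 9.29 and 12.2 in TN HIF2α AKO and 238.1, 142.6 and 139.1 in cold HIF2α AKO. The 3 levels, TN, cold WT and cold HIF2α AKO, were separate from one another in all libraries. Acot11 rose by a log2 fold change of 2.83 (SE 0.236, edgeR adjusted p = 0.000125) in WT, the 14th lowest p of 15306 genes. In HIF2α AKO the value was 4.16 (SE 0.25, edgeR adjusted p = 1.83e-05), the 3rd lowest p. Of the exonic bases of Acot11, 3738 lie within the span of Fam151a on the opposite strand, and Fam151a had at most 1 count in any library. Of the 50-base stretches of Acot11, 17.32% also occurred in Fam151a. The strand setting is not known, so the low Fam151a count does not show whether reads of Acot11 were left out there.

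Acot12, a cytosolic hydrolase of acetyl-CoA that is known from liver, shares the START domain with Acot11 and was detected at low counts. It had 8, 0 and 2 counts in TN WT, 0 in every TN HIF2α AKO library, 31, 22 and 11 counts in cold WT and 96, 48 and 37 in cold HIF2α AKO. All cold libraries were above all TN libraries. Of its exonic bases, 149 lie within the span of 4833422C13Rik on the opposite strand, which had 1 to 21 counts per library. Reads there cannot be told apart without a known strand setting. In WT the log2 fold change was 3.16 (SE 0.84, edgeR adjusted p = 0.0293). Without TN WT replicate 1 it was 4.57 (adjusted p = 0.0351). It was no longer called without TN WT replicate 2 (2.63, edgeR adjusted p = 0.0805), TN WT replicate 3 (2.98, adjusted p = 0.06), cold WT replicate 1 (2.75, adjusted p = 0.0775) or cold WT replicate 2 (3.11, adjusted p = 0.0535). In HIF2α AKO, Acot12 was at least 73.5-fold higher upon cold against 3 counts over the TN group (edgeR adjusted p = 0.00175), with 96 of its 181 cold counts in replicate 1. The filter passed Acot12 on cold libraries alone, so it had to differ and these tests carry no weight of their own. The 6 hepatocyte markers summed to between 4.15 and 18.2 CPM at TN and between 19.2 and 60.3 CPM upon cold. Most of this was Alb, with 94 to 481 counts per TN library and 372 to 1402 per cold library. Serpina1a had 14 to 49 counts per TN library and 43 to 88 per cold library. Of the 2 markers tested, Serpina1a was called higher upon cold in each genotype (log2 fold change 1.32 in WT and 1.63 in HIF2α AKO, edgeR adjusted p = 0.0474 and 0.0187), and Alb was not (1.72 and 1.31, edgeR adjusted p = 0.0804 and 0.145). Cyp3a11 was at 0 in all libraries, Ttr had at most 1 count, and Apoa1 and Apob had at most 11. The part of these markers in the Acot12 result was not tested.

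Acot13, which binds phosphatidylcholine transfer protein and hydrolyses long-chain acyl-CoA, was the member with the highest level per kilobase. Its CPM was 20.7, 13.7 and 21.2 in TN WT and 46.3, 51.3 and 49.9 in cold WT. It was 16.5, 24.4 and 21.0 in TN HIF2α AKO and 78.9, 56.3 and 54.1 in cold HIF2α AKO. Both cold groups were clear of both TN groups. The log2 fold change was 1.41 (SE 0.201, edgeR adjusted p = 0.00143) in WT and 1.61 (SE 0.202, edgeR adjusted p = 0.000462) in HIF2α AKO.

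The other 2 type II members, Acot8 in peroxisomes and Acot9 in mitochondria, were well expressed at TN and had the smallest log2 fold changes of the 9. Acot8 CPM was 16.5, 16.7 and 18.6 in TN WT, 25.0, 25.5 and 30.3 in cold WT, 16.9, 16.7 and 16.5 in TN HIF2α AKO and 34.3, 27.3 and 31.5 in cold HIF2α AKO. Its spread at TN was narrow, and the log2 fold change was 0.64 (SE 0.108, edgeR adjusted p = 0.00286) in WT and 0.89 (SE 0.108, edgeR adjusted p = 0.000393) in HIF2α AKO. Of the exonic bases of Acot8, 246 lie within the span of Snx21 on the opposite strand, which had 434 to 755 counts per library, and without a known strand setting reads there cannot be told apart. Acot9 CPM was 38.9, 36.4 and 47.0 in TN WT, 55.6, 51.7 and 54.9 in cold WT, 36.0, 43.5 and 47.0 in TN HIF2α AKO and 63.8, 58.3 and 55.1 in cold HIF2α AKO. The gap between TN and cold was smallest for this gene. Its log2 fold change was 0.41 (SE 0.119, edgeR adjusted p = 0.0346) in WT and 0.49 (SE 0.119, edgeR adjusted p = 0.0149) in HIF2α AKO. The Acot9 call in WT was lost without each of cold WT replicates 1, 2 and 3 and TN WT replicates 1 and 2 (log2 fold change 0.32 to 0.41, edgeR adjusted p from 0.0567 to 0.142). In HIF2α AKO it was lost without cold replicate 1 (0.43, adjusted p = 0.0691) and without TN replicate 1 (0.38, adjusted p = 0.0619).

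**Figure D4:**
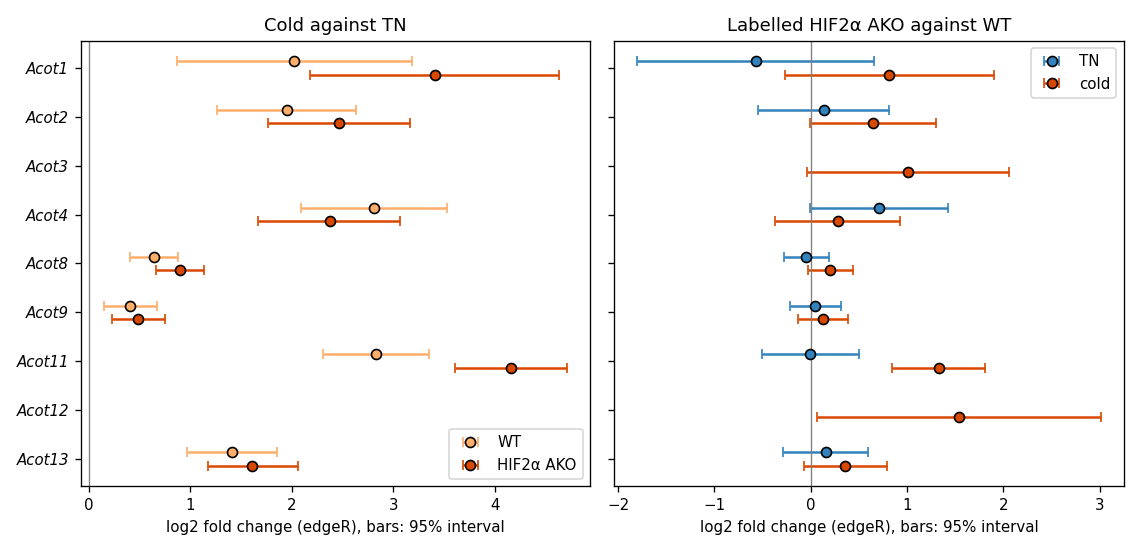
Log2 fold changes from edgeR (horizontal axes) with 95% intervals for the 9 genes (vertical axis), cold against TN on the left in WT and HIF2α AKO, and labelled HIF2α AKO against WT on the right at TN and in cold. Acot3 and Acot12 are drawn only for HIF2α AKO against WT in cold, since they had few or no reads at TN. All intervals on the left lie above 0, and on the right those of Acot11 and Acot12 in cold lie above 0 without passing the adjusted threshold.

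To ask whether the labelled loss of adipocyte HIF2α went with other levels of these genes, HIF2α AKO was compared with WT at each temperature. At TN, 0 of 9 members were called by edgeR or by limma voom. DESeq2 gave an adjusted p for 5 (Acot2, Acot8, Acot9, Acot11 and Acot13) and called 0 of these. EdgeR called 0.00653% of all tested genes. Fitted values were higher for 4 members and lower for 5, and the groups overlapped for all 9. At an unadjusted p under 0.05 stood 1 of 9 members, against 2.91% of tested genes. This was Acot12, with 10 pooled counts in TN WT and 0 in TN HIF2α AKO, 8 of them in TN WT replicate 1. For Acot11 the log2 difference at TN was 0.00 with a 95% interval from -0.51 to 0.50, so a change of 1.5-fold or more in either direction lies outside it. Acot4 had the largest difference at TN among members with reads in all libraries, at 0.71 (95% interval from -0.003 to 1.43, edgeR adjusted p = 0.999).

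In cold, 0 of 9 members were called by edgeR and by limma voom, and 1, Acot11, by DESeq2. The edgeR background was again 0.00653%. All 9 had fitted values above 0, with a median log2 difference of 0.65 against -0.02 over all tested genes. Over the 7 members with reads in every library, the median was 0.36. The HIF2α AKO libraries lay above all WT libraries for 3 members, Acot11, Acot12 and Acot13, as did 3.80% of tested genes. An unadjusted p under 0.05 was reached by Acot11 and Acot12, 2 of the 9, against 2.95% of tested genes. Acot11 differed by 1.33 on the log2 scale (SE 0.221, 95% interval from 0.84 to 1.81). Its unadjusted p from edgeR was 8.58e-05, the 3rd lowest of 15306 genes, with an adjusted p of 0.438. DESeq2 gave 1.36 with an adjusted p of 5.95e-05. For Acot12 the difference was 1.54 (95% interval from 0.06 to 3.01, edgeR adjusted p = 1).

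Cold HIF2α AKO replicate 1, the library with muscle RNA, had the highest CPM of the 12 libraries for 8 of the 9 members, all but Acot3. Without it, the Acot11 difference in cold was 1.03, that of Acot12 was 0.89 and that of Acot13 was 0.17. The remaining cold HIF2α AKO libraries, at 142.6 and 139.1 CPM of Acot11, were still above the highest cold WT library at 77.0. For Acot1, Acot2 and Acot4 the differences without this library were 0.46, 0.35 and 0.02. The part of the muscle RNA in these values was not tested. Without both libraries high in muscle genes, a comparison chosen after seeing the data, Acot11 again differed by 1.03 in cold (edgeR adjusted p = 1), and 8 of 9 members were called in cold against TN within HIF2α AKO. The call lost there was that of Acot9 (0.45, adjusted p = 0.0926).

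The other members in cold gave log2 differences between labelled genotypes of 0.82 for Acot1, 0.65 for Acot2, 1.01 for Acot3, 0.28 for Acot4, 0.20 for Acot8, 0.13 for Acot9 and 0.36 for Acot13, each with an edgeR adjusted p of 1. The 95% intervals reached below 0 for all of these. Acot1, Acot2, Acot3 and Acot13 also stand in a list that the study drew from these libraries, so that list is no independent evidence of their direction. For comparison, the non-members Acot5, Acot6 and Acot7 differed by 0.18, -0.12 and 0.04.

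Whether the cold response itself differed between genotypes was tested by the interaction term. It called 0 of 9 members by edgeR, DESeq2 or limma voom, and 0% of all tested genes by edgeR. At an unadjusted p under 0.05 were Acot11 and Acot12, 2 of the 9, against 2.14% of tested genes. For Acot11 the rise in HIF2α AKO exceeded that in WT by 1.33 on the log2 scale (SE 0.317, 95% interval from 0.64 to 2.03). Its unadjusted p was 0.00147, the 3rd lowest of all genes, and its edgeR adjusted p was 1. The Acot12 term rests on a TN HIF2α AKO group without reads, so its place in that count carries no weight and its size is not given. For Acot9 and Acot13 the terms were 0.08 (95% interval from -0.29 to 0.45) and 0.20 (from -0.41 to 0.82).

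The remaining thioesterases and neighbouring steps of acyl-CoA metabolism were described by lists. Of 11 other thioesterases, 8 were tested, and 5 rose upon cold in WT, from Ppt2 at a log2 fold change of 0.28 to Acot5. The others were Acot6, Acot7 and Them4 (1.10), a mitochondrial type II enzyme. In HIF2α AKO, 4 rose (Acot5, Acot6, Acot7 and Them4 at 1.41) and 1 fell, the lysosomal Ppt1 (-0.40, edgeR adjusted p = 0.0435). Acot5 passed the filter on cold libraries alone, so it had to differ, and it is part of both counts and of the medians below. Acot7, a cytosolic type II enzyme that is abundant in brain, rose by 0.48 in either genotype (edgeR adjusted p = 0.0161 and 0.0143). Acot10, the close relative of Acot9, had between 0 and 3 counts per library and was not tested. The median log2 fold change of the 8 tested genes was 0.39 in WT and 0.36 in HIF2α AKO, below that of the 9 members (2.02 and 2.46). Over the 7 members with reads in every library, the medians were 1.95 and 2.37. Members and lists were chosen with earlier results of these data known, so this comparison is a description only.

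Genes that make or degrade coenzyme A rose in 7 of 12 cases in WT, from the mitochondrial CoA hydrolase Nudt8 (0.53) to the pantothenate kinase Pank1 (3.24), with 7 of 12 in HIF2α AKO as well. Acyl-CoA synthetases, the enzymes opposite to the thioesterases, rose in 9 of 15 cases in WT and 10 of 15 in HIF2α AKO, from Acss1 (0.65) to the very-long-chain synthetase Slc27a2 (7.01) in WT. The median was 0.93 in WT and 1.07 in HIF2α AKO. In mitochondrial fatty acid oxidation, 19 of 21 genes rose in either genotype, with a median of 2.03 in WT and 1.84 in HIF2α AKO. In WT the called genes ran from the hydratase Echs1 (1.27) to the carnitine-acylcarnitine carrier Slc25a20 (3.02). In peroxisomal oxidation, 14 of 19 rose in WT and 12 of 19 in HIF2α AKO, from the carnitine octanoyltransferase Crot (0.48) to the thiolase Acaa1b (3.52) in WT. Target genes of PPARα, some of which belong to the oxidation lists, rose in 12 of 16 cases in WT and 11 of 16 in HIF2α AKO, from Pex11a (1.14) to the fatty acid binding protein Fabp3 (10.39). Thermogenic genes rose in 7 of 8 cases in WT and 8 of 8 in HIF2α AKO, from the coactivator Ppargc1a (2.56) to Ucp1 (12.61). The PPARα target Fgf21 and the thermogenic gene Elovl3 passed the filter on cold libraries alone. They thus had to differ and are part of these counts. Mean CPM in TN WT was only 0.319 for Fabp3, 0.344 for Slc27a2 and 0.433 for Ucp1. The sizes of these 3 largest values thus rest on few TN reads. No gene of these lists was called lower upon cold except Ppt1 in HIF2α AKO, and 0 were called by edgeR between labelled genotypes at either temperature. At an adjusted p under 0.05, edgeR called 15.6% of all tested genes higher upon cold in either genotype. In cold, the log2 difference of HIF2α AKO from WT was fitted above 0 for 8 of 8 thermogenic genes, with a median of 0.68. For mitochondrial oxidation it was 19 of 21 (median 0.25), for PPARα targets 9 of 16 (0.31) and for CoA genes 9 of 12 (0.12). For synthetases it was 9 of 15 (0.01), for peroxisomal oxidation 9 of 19 (-0.01) and for other thioesterases 3 of 8 (-0.05). Over all tested genes the median was -0.02, and no test was attached to these counts. They include cold HIF2α AKO replicate 1, the library with muscle RNA. There Ucp1 stood at 5897 CPM, against 4046 and 4146 CPM in replicates 2 and 3. The part of that library in these list values was not tested.

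To find the genes most like each member, log2 CPM was correlated with 13137 tested genes of sufficient count. Over all 12 libraries, which fall into TN and cold groups, the closest were Vldlr for Acot13 (Pearson r = 0.996), Cntfr for Acot2 (0.994), Pald1 for Acot11 (0.992) and Pmm2 for Acot8 (0.991). Ndfip2 for Acot1 (0.988), Chst11 for Acot4 (0.987), Pm20d1 for Acot9 (0.986), Ctbp1 for Acot12 (0.979) and Pmm2 for Acot3 (0.973) followed. After the group means had been taken off, Cntfr stayed closest to Acot2 (0.945) and Pm20d1 to Acot9 (0.969), and another gene was closest to each of the other 7 members. These are the highest of many values over 12 libraries that share depth and composition, and no test was attached to them. Among pairs of members, deviations from group means correlated between -0.345 for Acot1 and Acot3 and 0.82 for Acot9 and Acot11.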

How the data were processed

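The authors trimmed reads of 12 iWAT libraries with Trim Galore 0.4.4, mapped them to GRCm38/mm10 with STAR 2.6.1d and deposited raw counts per gene from HTSeq 0.13.5, without normalization. The annotation, strand setting and read length are not given in the sources used here. Between 21.9 and 27.04% of listed reads stood in 5 tallies not assigned to a gene, which were left out. Reads without a feature made up 14.13 to 18.87%, ambiguous reads 1.30 to 1.51% and reads not uniquely aligned 4.40 to 9.33%.

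Counts were analysed in R 4.3.3 with edgeR 4.0.16. Genes were kept by filterByExpr (minimum count 10, minimum total 15), scaled by TMM and fitted by the quasi-likelihood method with 1 factor of 4 groups. P-values were adjusted by Benjamini-Hochberg over 15306 genes at 0.05. Log2 CPM used a prior count of 2. DESeq2 1.42.0, limma 3.58.1 (voom with sample weights), other scalings and filters, a replicate block and single libraries left out were alternatives. The processing was tested on simulated data. Exon lengths and overlaps came from GENCODE vM21 for GRCm38, which may differ from the annotation the authors counted on.

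The labels do not say whether each library came from a separate mouse, so p-values measure only the spread between these libraries, which may be technical. Replicates with equal numbers did not pair. Every member was named in every group. From the lists, the called genes with the largest and smallest log2 fold change in cold WT against TN WT were named, and Acot5, Acot6, Acot7 and Acot10 in addition. For likeness, the closest gene with a mean count of at least 50 was named per member. The members and lists were chosen with earlier results of these data known.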

Additional observations from a re-analysis of the deposited data

How the results depend on the processing

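No member changed direction in cold against TN under any alternative run, and the cause of lost calls was not tested. Fitting only the groups compared called 1752 genes in cold WT against TN WT in place of 3259, with 5 members. Acot3 and Acot12 did not pass its filter, and Acot1 and Acot9 had adjusted p-values of 0.0717 and 0.0674. It called 0 genes between genotypes at TN and 0 in cold. DESeq2 called 9 genes between genotypes at TN, and 7 in cold with 1 member, Acot11. Voom called 2 at either temperature. DESeq2 gave no adjusted p for Acot3 in cold WT against TN WT, nor for Acot1, Acot3, Acot4 and Acot12 between genotypes at TN. Acot9 was not called in WT under upper-quartile scaling (adjusted p = 0.0743) or without a filter (0.0587). Leaving out single libraries, between 1381 and 3722 genes were called in cold WT against TN WT and between 1613 and 4155 in cold HIF2α AKO against TN HIF2α AKO. The counts were 1381 without TN WT replicate 2, 1469 without cold WT replicate 3 and 1810 without TN WT replicate 1. In HIF2α AKO they were 1613 without cold replicate 1, 1735 without TN replicate 1 and 2450 without TN replicate 3, and 1514 without both libraries high in muscle genes, an alternative chosen after seeing the data.

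Sign changes concerned differences between genotypes and interactions that were not called. Acot11 between genotypes at TN was 0.22 by voom, 0.0285 without both libraries high in muscle genes, and from -0.20 to 0.15 without single libraries. Between genotypes at TN, leaving out single libraries gave -0.88 to 0.31 for Acot1, -0.0776 to 0.0109 for Acot8, -0.0362 to 0.164 for Acot9 and -0.0221 to 0.293 for Acot13. The interaction by voom was 0.12 for Acot4 and -0.0559 for Acot9, and that of Acot9 ranged from -0.0356 to 0.17 without single libraries.

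The replicate numbers were shared between groups but did not pair the libraries. Of 18 pairs with equal numbers, 5 had deviations correlated above 0.1, with a range from -0.43 to 0.39. With a replicate block, 2561 genes were called in cold WT against TN WT and 3313 in cold HIF2α AKO against TN HIF2α AKO, with 9 members in each. Acot11 between genotypes at TN was then 0.0029 in place of -0.0031. Depth limits Acot3 and Acot12, for which 0 counts in TN HIF2α AKO leave only lower bounds there.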
